A study of Mus musculus with 2 samples.

Results

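The genes described here are 10 members of the transforming growth factor-beta (TGF-beta) system, chosen by symbol from the 27998 genes listed in the deposited tables: the ligands Tgfb1, Tgfb2 and Tgfb3, the receptors Tgfbr1, Tgfbr2 and Tgfbr3, the latent-TGF-beta binding protein Ltbp4, the integrin subunits Itgav and Itgb6, and the matrix glycoprotein Thbs1. All 10 were found. Ltbp4 was listed under 2 identifiers, of which ENSMUSG00000108715 held 0 UMIs in both libraries, so its values come from ENSMUSG00000040488. The study sequenced single cells from whole lung of male C57Bl/6J mice aged 3 months, killed 14 days after 100 µg of titanium dioxide (TiO2) or crocidolite asbestos had been placed in the trachea. Crocidolite is a mineral fibre that scars the lung, and TiO2 is a particle commonly used as its comparator. One library was labelled control and 1 fibrosis, each from 1 mouse, and the labels name both particles for both, so the groups are called the control and the fibrosis library. Both mice shared strain, sex, age, tissue and digestion protocol. With 1 mouse per group no difference below has a replicate check, no test was possible, and each 95% interval covers counting error only.

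TGF-beta is secreted as an inert complex in which the growth factor stays wrapped in its own propeptide. Latent-TGF-beta binding proteins such as Ltbp4 tether that complex to the matrix, and integrins made of Itgav with a partner such as Itgb6 pull the propeptide open, while Thbs1 can release the ligand by binding the propeptide. The free ligand joins Tgfbr2 to Tgfbr1, which phosphorylates Smad2 and Smad3, and Tgfbr3 (betaglycan) presents ligand to Tgfbr2. In the lung this system is a known driver of matrix deposition by fibroblasts, and the integrin made of Itgav and Itgb6 is known for activating TGF-beta on injured epithelium.

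The Tgfb1 gene spans chr7:25687002-25705077 on the plus strand of GRCm38 (GENCODE M21), and Itgb6 spans chr2:60598292-60722643 on the minus strand. The 250 bases before the RefSeq start of these 2 genes are shown because their counts were spread so differently over the cells: Tgfb1 was counted in every class compared, and Itgb6 mainly in epithelial classes. The Tgfb1 window is chr7:25686752-25687001 (plus strand), and the Itgb6 window is chr2:60722604-60722853 (minus strand, the first of 2 starts listed), both from GRCm38.p6. Capitals mark matches, on either strand, to a GC box (GGGCGG) or an AP-1 site (TGANTCA).
Tgfb1: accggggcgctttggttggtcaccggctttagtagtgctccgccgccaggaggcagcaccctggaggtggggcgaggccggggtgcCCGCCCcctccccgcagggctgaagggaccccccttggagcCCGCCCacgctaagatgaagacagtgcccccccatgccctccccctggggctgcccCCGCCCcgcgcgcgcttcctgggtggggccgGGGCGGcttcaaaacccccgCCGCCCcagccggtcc
Itgb6: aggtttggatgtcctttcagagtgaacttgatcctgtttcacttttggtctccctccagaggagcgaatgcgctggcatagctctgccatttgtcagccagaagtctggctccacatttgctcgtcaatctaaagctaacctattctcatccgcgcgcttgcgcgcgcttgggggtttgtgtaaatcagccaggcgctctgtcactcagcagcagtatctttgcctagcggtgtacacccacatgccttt
The Tgfb1 window held 5 GC boxes, 21 CpG pairs and 75.2% G or C. The Itgb6 window held 0 GC boxes, 11 CpG pairs and 52.0% G or C. Neither held the AP-1 letters. Among all 32851 listed promoters of the same length, 32.7% held a GC box and 6.75% an AP-1 site, with a median of 6 CpG pairs. Promoters were listed for 7 of the 10 genes, and among the others of these 7, Tgfbr1 had 2 GC boxes, Ltbp4 had 3, and Tgfb2, Tgfbr2 and Itgav had 0. These are matches of letters in a window and were not compared with any binding data.

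Counts came from 8280 control cells with 36632591 UMIs (unique molecular identifiers, 1 per captured RNA molecule) and 7173 fibrosis cells with 38090308 UMIs, of which 7510 and 6786 cells were kept. Marker genes named 24 classes of cells, each called "-like" because the names were rebuilt here, and 16 classes with at least 50 cells in each library entered the comparison. The two-set monocyte-like class carried the markers of classical and of nonclassical monocytes, and the T and ILC2-like class was led by Foxp3, Il2ra and Ctla4 among others, which mark regulatory T cells. Median depth ranged from 1813 UMIs per cell (neutrophil-like) to 7492 (proliferating-like) in the 16 control classes, and from 2260 (neutrophil-like) to 11272 (ciliated-like) in the fibrosis ones. The classes held very different numbers of cells in the 2 libraries, such as 1267 control and 278 fibrosis cells of the classical monocyte-like class. The libraries shared 89 cell barcodes. A level below is UMIs scaled to a common class total (CPM), not per length, so levels are compared between classes and libraries but not between genes. A ratio is fibrosis over control on the log2 scale, given with at least 20 UMIs over both libraries, and is called higher or lower past 1.5-fold.

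Tgfb1 was the most counted of the 10 genes, with 6616 UMIs in control cells and 3427 in fibrosis cells. Among the 16 classes its level was highest in two-set monocyte-like cells in both libraries, and in the control library the other monocyte classes came next. In the fibrosis library classical monocyte-like cells had 186 CPM, close to alveolar macrophage-like cells with 181 and type 2 dendritic-like cells with 180. In the control library two-set monocyte-like cells had 513 CPM (95% interval 486 to 541), classical monocyte-like cells 341 (327 to 356) and nonclassical monocyte-like cells 312 (264 to 365). Alveolar macrophage-like cells followed with 282 CPM (264 to 302), type 2 dendritic-like cells with 272 (233 to 317), interstitial macrophage-like cells with 246 (208 to 288) and B cell-like cells with 244 (222 to 267). From the classical monocyte-like cells down to the B cell-like cells, each class's interval overlapped that of the next class in the order. Endothelial-like cells had 205 CPM, NK cell-like cells 151, T cell-like cells 73.5 and neutrophil-like cells 47.8. The 2 epithelial classes were lowest, AT2-like cells (alveolar type 2 cells, which secrete surfactant) with 16.6 CPM (13.5 to 20.2) and ciliated-like cells with 7.65 (4.28 to 12.6). With each cell thinned to 1000 UMIs, 25.1% of control alveolar macrophage-like cells (21.8 to 28.7, Clopper-Pearson) held a Tgfb1 UMI and 16.3% of fibrosis ones (14.1 to 18.7), against 72.7% and 59.5% at full depth and 0% of ciliated-like cells when thinned, which allows up to 2.29% and 1.89% of them.

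Tgfb1 was lower in the fibrosis library in myeloid, lymphoid and endothelial classes alike. The log2 ratio was below 0 in 15 of 16 classes, with a median of -0.63, and was lower past 1.5-fold in 11 classes and higher in 0. Scaled by the median of gene ratios it was lower past 1.5-fold in 8 of the 16, with NK cell-like (-0.50), alveolar macrophage-like (-0.58) and type 2 dendritic-like cells (-0.53) no longer called, and without doublet removal in 7 of the 13 of these classes that had a value. Of the 2411 genes with a ratio in all 16 classes, 19 (0.788%) were lower past 1.5-fold in at least 11, Tgfb1 among them, and 26 (1.08%) were higher in at least 11. The median of these genes' own medians was -0.03, and 25 of them (1.04%) had a median at or below that of Tgfb1. Endothelial-like cells had 205 CPM in control cells and 97.2 in fibrosis cells, a log2 ratio of -1.07 (-1.43 to -0.72). B cell-like cells had 244 and 131 CPM, a log2 ratio of -0.90 (-1.19 to -0.61). Classical monocyte-like cells had 341 and 186 CPM, and two-set monocyte-like cells 513 and 324 CPM, and in both the intervals of the 2 libraries did not overlap. AT2-like cells were the exception in sign, with 16.6 and 18.9 CPM and a log2 ratio of 0.19 (-0.17 to 0.55), which was -0.37 without doublet removal. Among the classes of few cells, fibroblast-like cells had 57.5 and 73.1 CPM, a log2 ratio of 0.35 (-0.74 to 1.53), and plasmacytoid dendritic-like cells 325 and 243 CPM, a ratio of -0.42 (-1.01 to 0.15). The interval of the ratio also held 0 in T cell-like, T and ILC2-like, neutrophil-like and ciliated-like cells. Of these, neutrophil-like cells had a ratio of 0.09 with cells assigned one by one and 0.60 with cells thinned, and T and ILC2-like cells 0.06 with cells thinned and 0.28 with a mitochondrial maximum of 5%. The ciliated-like ratio of -1.16, among the 11 called lower, rested on 15 control and 10 fibrosis UMIs. Of the 15 control UMIs, 60% came from 1 cell, so this call and its sign rest largely on that cell.

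RNA of other cell types also differed between the libraries within these classes. The 5 club cell markers, secretory genes of the airway, were counted in every class and were lower in the fibrosis library in 15 of 16, with a median log2 ratio of -0.40. Their sum was 8609 and 4585 CPM in B cell-like cells and 6607 and 3770 CPM in endothelial-like cells, and it was higher in proliferating-like cells, with 2976 and 6695 CPM, where Tgfb1 had a ratio of -0.69. Among the 16 classes the sum was largest in ciliated-like cells, with 353005 and 289001 CPM, against 576263 and 430798 CPM in club-like cells. Club-like cells themselves had 8.04 CPM of Tgfb1 in control cells and 6.42 in fibrosis cells, from 5 and 9 UMIs. The 5 platelet markers summed to between 0 and 24 UMIs in each class and library. In the 11 compared classes where both libraries held some, they were lower in the fibrosis library in 9. The median log2 ratio of these small sums was -1.30 (range -3.50 to 0.77). The part of these markers in the ratio of Tgfb1 was not tested.

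**Figure D1:**
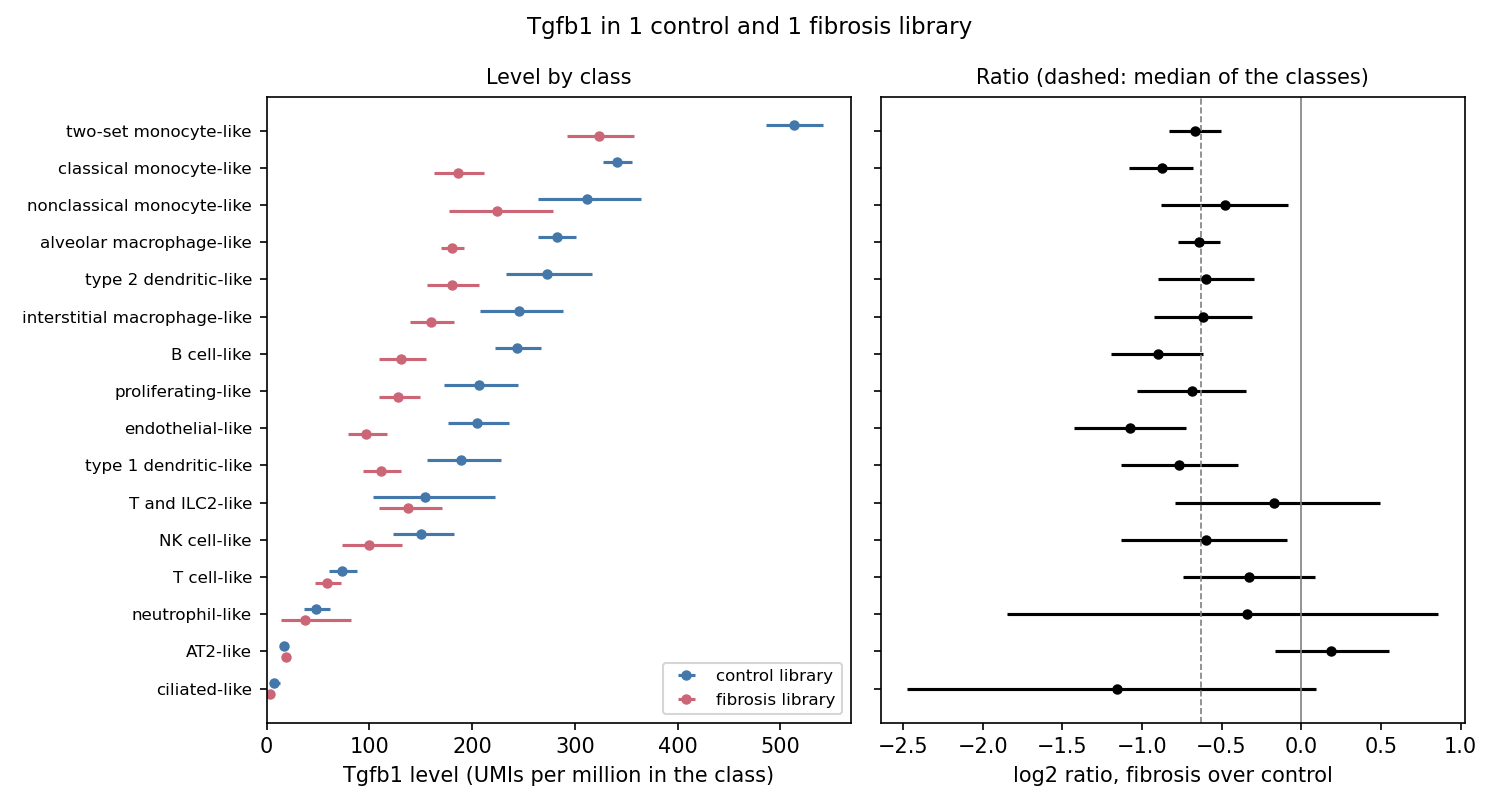
Level of Tgfb1 in CPM (left) and its log2 ratio, fibrosis over control (right), in the 16 classes of 1 control and 1 fibrosis library. Points are values of 1 library, bars are exact 95% intervals for counting error, and the dashed line is the median ratio of -0.63. All classes but the AT2-like lie below 0.

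A ratio shared by B cell-like, endothelial-like and monocyte-like cells cannot be told apart from a difference between the 2 libraries, so each class was also set against the median of the other classes. On that scale Tgfb1 was 0.83 higher in AT2-like, 0.47 higher in T and ILC2-like, 0.46 lower in endothelial-like and 0.28 lower in B cell-like cells. Alveolar macrophage-like cells differed from the other classes by -0.02. The other genes lower in at least 11 classes included the pseudogenes or near-identical copies Gm6133, Rnaset2a, Rps27rt, Rpl23a-ps3, Rps26-ps1 and Rpl13-ps3, whose reads can be assigned to more than 1 gene, beside single genes such as S100a4, Tuba1a, Plp2 and Tsc22d3 (named after their values were seen). The 5 lower in all 16 classes were Gm6133, Rnaset2a, Gm10263, Wdr89 and Rps27rt. The part that read assignment or any other difference between the libraries played in the ratio of Tgfb1 was not tested.

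Within alveolar macrophage-like cells the level of Tgfb1 differed between 2 clusters. The class as a whole had 282 CPM in control cells and 181 in fibrosis cells, past 1.5-fold. Its Fabp1-led cluster, with 599 control and 573 fibrosis cells, had 289 CPM (270 to 310) and 210 CPM (193 to 228), a log2 ratio of -0.46 (-0.62 to -0.31). Its Mmp12-led cluster had 34 control and 462 fibrosis cells, with 171 CPM (117 to 241) and 155 CPM (141 to 169), a log2 ratio of -0.14 (-0.66 to 0.42). Neither cluster on its own passed 1.5-fold, and the interval of the Fabp1-led cluster lay below 0. In the endothelial-like class both clusters kept the lower level, with 269 and 146 CPM in the Kdr-led cluster and 170 and 82.2 CPM in the Vwf-led cluster. The 7 AT2 markers summed to 2410 and 46202 CPM in the Kdr-led cluster and to 18894 and 32326 CPM in the Vwf-led one, against 247098 and 218328 CPM in AT2-like cells, and their part in the lower level was not tested.

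In AT2-like cells, the class with a ratio above 0, the Sftpc-led cluster (933 and 1189 cells) had 16.2 and 16.7 CPM of Tgfb1, a log2 ratio of 0.05 (-0.36 to 0.46). A Hepacam-led cluster of 16 control and 72 fibrosis cells held 35 of the 199 fibrosis UMIs, with 26.7 and 68.0 CPM. The 6 B cell markers summed to 1040 and 1044 CPM in that cluster, against 39.6 and 45.4 CPM in the Sftpc-led one, where the 9 alveolar macrophage markers summed to 76.1 and 251 CPM. The part of these markers in the Tgfb1 level of AT2-like cells was not tested.

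The share of all Tgfb1 molecules held by monocytes was smaller in the fibrosis library and that of macrophages larger. Classical monocyte-like cells held 33.9% of all Tgfb1 UMIs among kept control cells and 6.62% among kept fibrosis cells, and alveolar macrophage-like cells 13.2% and 31.5%. This change contains the change in cell numbers, so the level was also computed over all classed cells with each class weighted as in the control library. The level of Tgfb1 over all classed cells was 202 CPM in control cells and 94.3 in fibrosis cells, a log2 ratio of -1.10, and with the control makeup it was 123 CPM, a log2 ratio of -0.71. The same weighting took Tgfb3 from 1.02 to 0.51, Tgfbr2 from 0.50 to 0.12, Tgfbr1 from 0.53 to 0.24 and Itgb6 from 1.05 to 0.84 on the log2 scale. Ltbp4 went from 0.22 to -0.13, so its sign depended on the makeup of the library. Thbs1 went the other way, from 0.26 to 0.45.

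**Figure D2:**
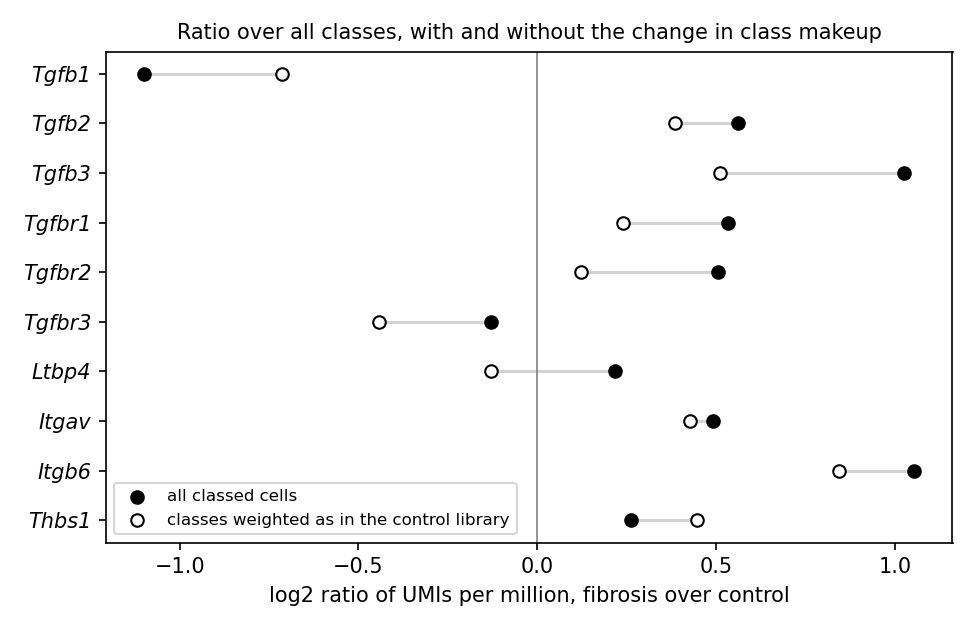
Log2 ratio of CPM, fibrosis over control, over all classed cells (filled) and with each class weighted as in the control library (open), for the 10 genes. Lines join the 2 values of a gene. Most values move toward 0 with the control makeup, while those of Tgfbr3 and Thbs1 move away from it and that of Ltbp4 crosses 0.

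Nearly all of the lower calls belonged to Tgfb1. Of the 160 pairs of 1 of the 10 genes and an eligible class, 79 had a ratio, and 13 (16.5%) were lower and 21 (26.6%) higher past 1.5-fold. Over all genes 10.7% of such pairs were lower and 12.5% higher, and by class the share lower ran from 3.96% (AT2-like) to 23.9% (neutrophil-like). Without Tgfb1, 2 of 63 pairs were lower, Tgfb2 in alveolar macrophage-like cells (12 and 14 UMIs) and Tgfbr3 in AT2-like cells (16 and 16 UMIs), and the interval of both ratios held 0. The interval held 0 for many of the higher pairs too, such as Tgfbr1 and Tgfbr2 in neutrophil-like and Itgav in B cell-like and NK cell-like cells. It lay above 0 for others, such as Thbs1 in endothelial-like and Tgfbr2 in T cell-like cells.

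Tgfb2, the ligand known for heart and epithelial development, was counted mainly in lining cells. Mesothelial-like cells, which cover the lung surface, had 336 CPM (268 to 416) in control cells and 368 (301 to 446) in fibrosis cells, with 33 cells in each. These cells held 51.5% and 38.7% of all Tgfb2 UMIs. AT1-like cells, the thin gas-exchange cells, had 103 CPM (61.2 to 163) and 154 CPM (99.5 to 227). The 18 smooth muscle or pericyte-like fibrosis cells, which are not lining cells, held 12 Tgfb2 UMIs among 68596. Of these 12, 50% came from 1 cell. Endothelial-like cells had 26.6 and 23.6 CPM, and there every UMI lay in the Vwf-led cluster, with 40.9 and 31.0 CPM against 0 UMIs in the Kdr-led cluster in both libraries. Club-like cells had 3.21 CPM in control cells and 20.7 in fibrosis cells, a log2 ratio of 2.69 (0.70 to 5.80) from 2 and 29 UMIs in 45 and 96 cells. A Scgb3a2-led cluster of 14 control and 47 fibrosis cells held 25 of the 29, while the evenly filled Calca-led cluster, with 25 and 26 cells, held 1 and 2 UMIs. In the large mesothelial-like and endothelial-like sources the intervals of the 2 libraries overlapped.

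Tgfb3 had the fewest control UMIs of the 3 ligands, 120, against 272 in the fibrosis library. AT2-like cells held 45.8% of them in control cells and 52.6% in fibrosis cells. There were 994 and 1730 of these cells, and their level was 9.11 CPM (6.86 to 11.9) and 13.6 CPM (11.4 to 16.0), a log2 ratio of 0.57 (0.11 to 1.05). Levels were higher in mesothelial-like cells, with 136 and 188 CPM, in smooth muscle or pericyte-like cells, with 107 and 117 CPM, and in fibroblast-like cells, with 73.1 and 64.0 CPM. In those 3 classes the intervals of the 2 libraries overlapped.

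**Figure D3:**
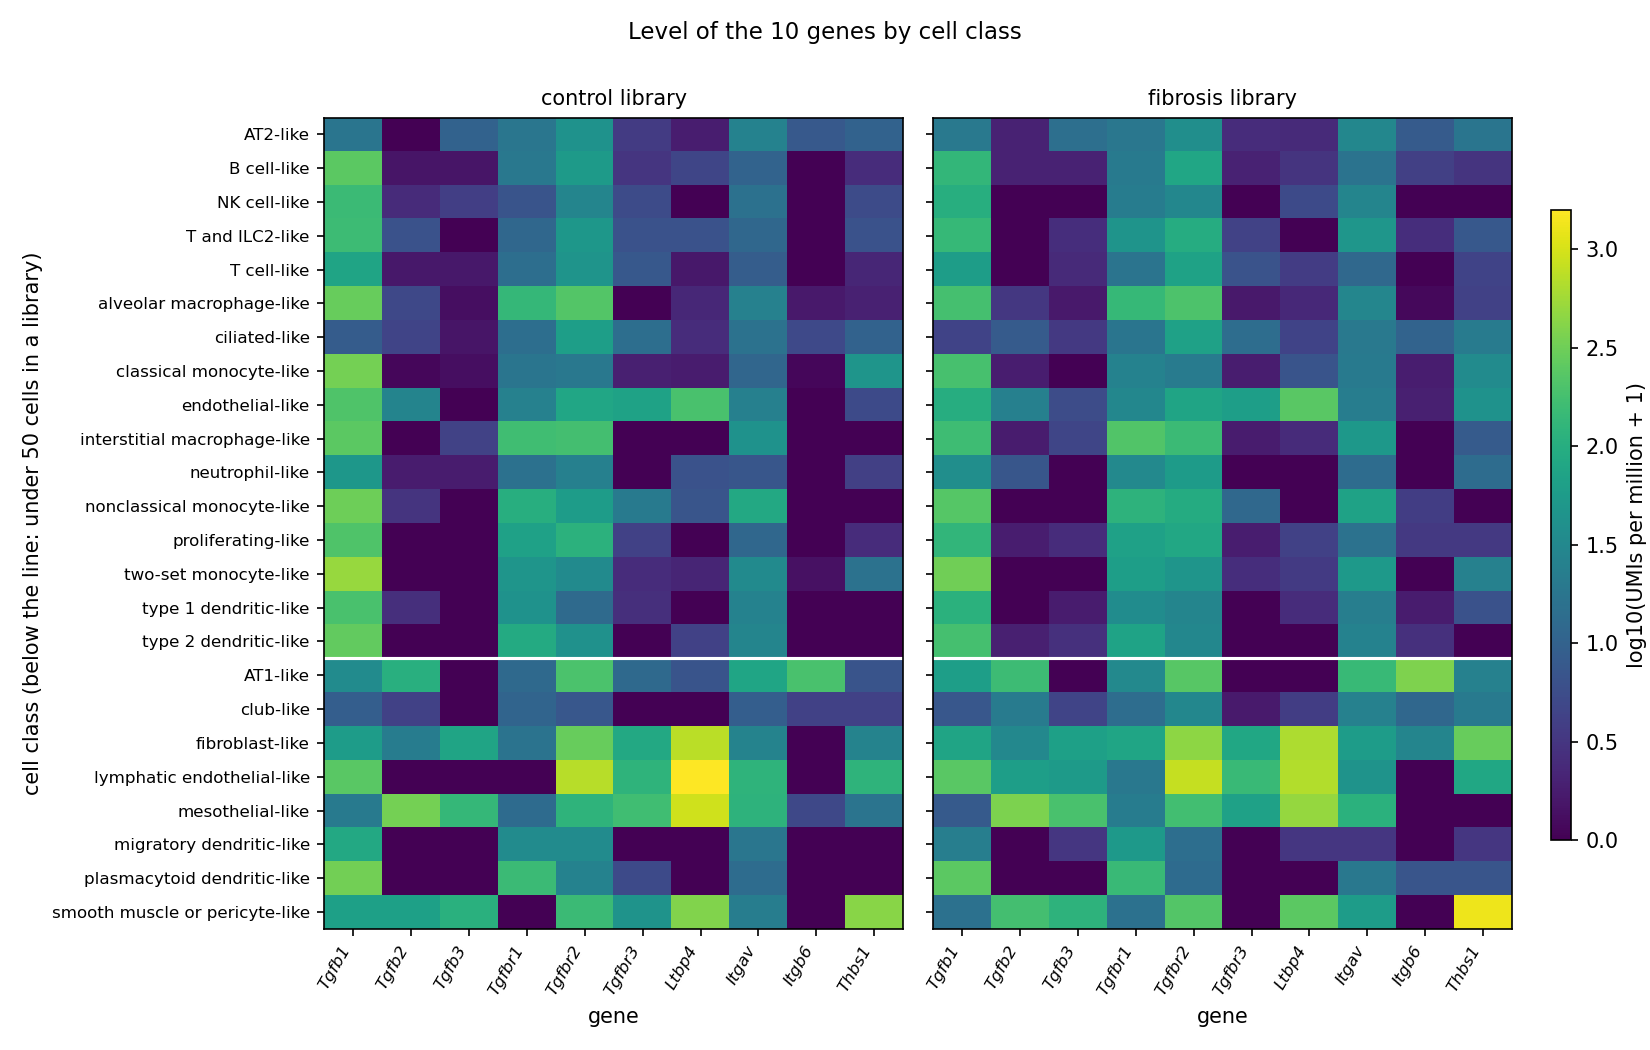
Level of each of the 10 genes (columns) in each of 24 classes (rows) of the control and the fibrosis library, as log10 of CPM plus 1. Classes below the white line had under 50 cells in at least 1 library, and those rows rest on few UMIs. Tgfb1 fills the blood-cell rows, Tgfb2 and Tgfb3 are high in the mesothelial-like row, and Ltbp4 is high in the mesothelial-like, fibroblast-like and lymphatic endothelial-like rows.

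Among the 16 classes the kinase receptor Tgfbr1 was highest in macrophages. Interstitial macrophage-like cells had 166 CPM (136 to 202) in control cells and 211 CPM (188 to 237) in fibrosis cells, and alveolar macrophage-like cells 134 (121 to 147) and 139 (130 to 149). Nonclassical monocyte-like cells had 100.5 and 116 CPM, whereas classical monocyte-like cells had 16.6 and 25.4 CPM. Of 15 classes with a ratio, 3 were called higher and 0 lower, and the interval of 12 held 0. The call in classical monocyte-like cells ended under 5 of 11 alternatives, with a ratio as low as 0.24 without doublet removal. The highest ratio, 2.07 in T and ILC2-like cells, rested on 2 control UMIs against 27 and was 0.58 without doublet removal. In fibroblast-like cells, the cells on which TGF-beta acts to drive matrix production, the level was 15.7 CPM (3.23 to 45.8) from 3 UMIs in control cells and 76.1 CPM (49.3 to 112) from 25 UMIs in fibrosis cells.

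Tgfbr2, the receptor that binds the ligand first, was highest in lymphatic endothelial-like and fibroblast-like cells. Fibroblast-like cells had 287 CPM (216 to 374) in control cells and 457 CPM (387 to 536) in fibrosis cells, a log2 ratio of 0.67 (0.21 to 1.14), from 45 and 57 cells. Lymphatic endothelial-like cells had 720 and 832 CPM, with 4 cells in the control library. AT1-like cells had 195 and 234 CPM, and alveolar macrophage-like cells 218 (202 to 236) and 203 (192 to 215). Of 16 classes with a ratio 5 were called higher and 0 lower, and the interval of 13 held 0. Over all genes 12.5% of pairs were called higher. Among the called classes the interval held 0 in T and ILC2-like, neutrophil-like and nonclassical monocyte-like cells. T cell-like cells were among the higher, with 44.0 CPM (34.5 to 55.3) and 68.3 CPM (55.5 to 83.1), as were type 1 dendritic-like cells, with 11.8 and 27.6 CPM from 7 and 36 UMIs. The intervals of the 2 libraries did not overlap in T cell-like cells and overlapped in type 1 dendritic-like cells. With cells thinned the ratio in T cell-like cells went from 0.63 to 0.53, under the 1.5-fold line.

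Tgfbr3, the co-receptor betaglycan, had 220 and 218 UMIs, enough for a ratio in 3 of the 16 classes. Endothelial-like cells had 68.2 CPM (52.5 to 87.1) in control cells and 60.9 (47.2 to 77.3) in fibrosis cells, and fibroblast-like cells 83.6 and 79.2 CPM. Mesothelial-like cells had 164 CPM (118 to 223) and 67.2 CPM (40.5 to 105), a log2 ratio of -1.29 (-2.15 to -0.47) from 33 cells in each library. Of their 41 control UMIs, 26.8% came from 1 cell, a spread that the interval does not cover. Alveolar macrophage-like cells had 0 UMIs in the control Fabp1-led cluster and 1 in the fibrosis one, beside 633 and 602 Tgfbr2 UMIs in the same clusters.

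Ltbp4, which holds latent TGF-beta in elastic matrix, was highest in mesenchymal and lymphatic cells and, among the other endothelial cells, in 1 of 2 clusters. Fibroblast-like cells had 742 CPM (625 to 874) in control cells and 643 (559 to 735) in fibrosis cells. Mesothelial-like cells had 924 CPM (809 to 1051) and 495 CPM (417 to 584), a log2 ratio of -0.90 (-1.21 to -0.59), and the intervals did not overlap. In endothelial-like cells Ltbp4 had 188 and 239 CPM, and nearly all of it lay in the Vwf-led cluster, with 283 CPM (242 to 328) and 310 CPM (273 to 350), against 9.17 and 11.5 CPM from 3 UMIs each in the Kdr-led cluster. Within the Vwf-led cluster the log2 ratio was 0.13 (-0.15 to 0.42), against 0.35 (0.07 to 0.63) in the whole class, in which the Kdr-led cluster went from 149 to 79 cells.

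The integrin subunit Itgav, shared by several TGF-beta-activating integrins, was broadly present. Among classes with a ratio its level was highest in mesothelial-like cells, with 116 and 110 CPM, AT1-like cells, with 74.5 and 141 CPM, and nonclassical monocyte-like cells, with 84.4 and 69.1 CPM. Of 15 classes with a ratio, 5 were called higher and 0 lower, and the interval of 12 held 0. Classical monocyte-like cells had 10.5 CPM (8.17 to 13.3) in control cells and 19.7 (12.6 to 29.3) in fibrosis cells, and two-set monocyte-like cells 32.7 (26.1 to 40.5) and 52.8 (40.7 to 67.5). The intervals did not overlap in the two-set class and overlapped in the classical one. The two-set call ended under 5 of 10 alternatives, with a log2 ratio of 0.06 at cluster resolution 0.5 and 0.20 with equal doublet removal against 0.69, while the classical ratio stayed between 0.77 and 1.19. Mmp12-led fibrosis cells of the alveolar macrophage-like class had 36.7 CPM (30.3 to 44.0), and the Fabp1-led cells of the same library 19.5 (14.7 to 25.4).

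**Figure D4:**
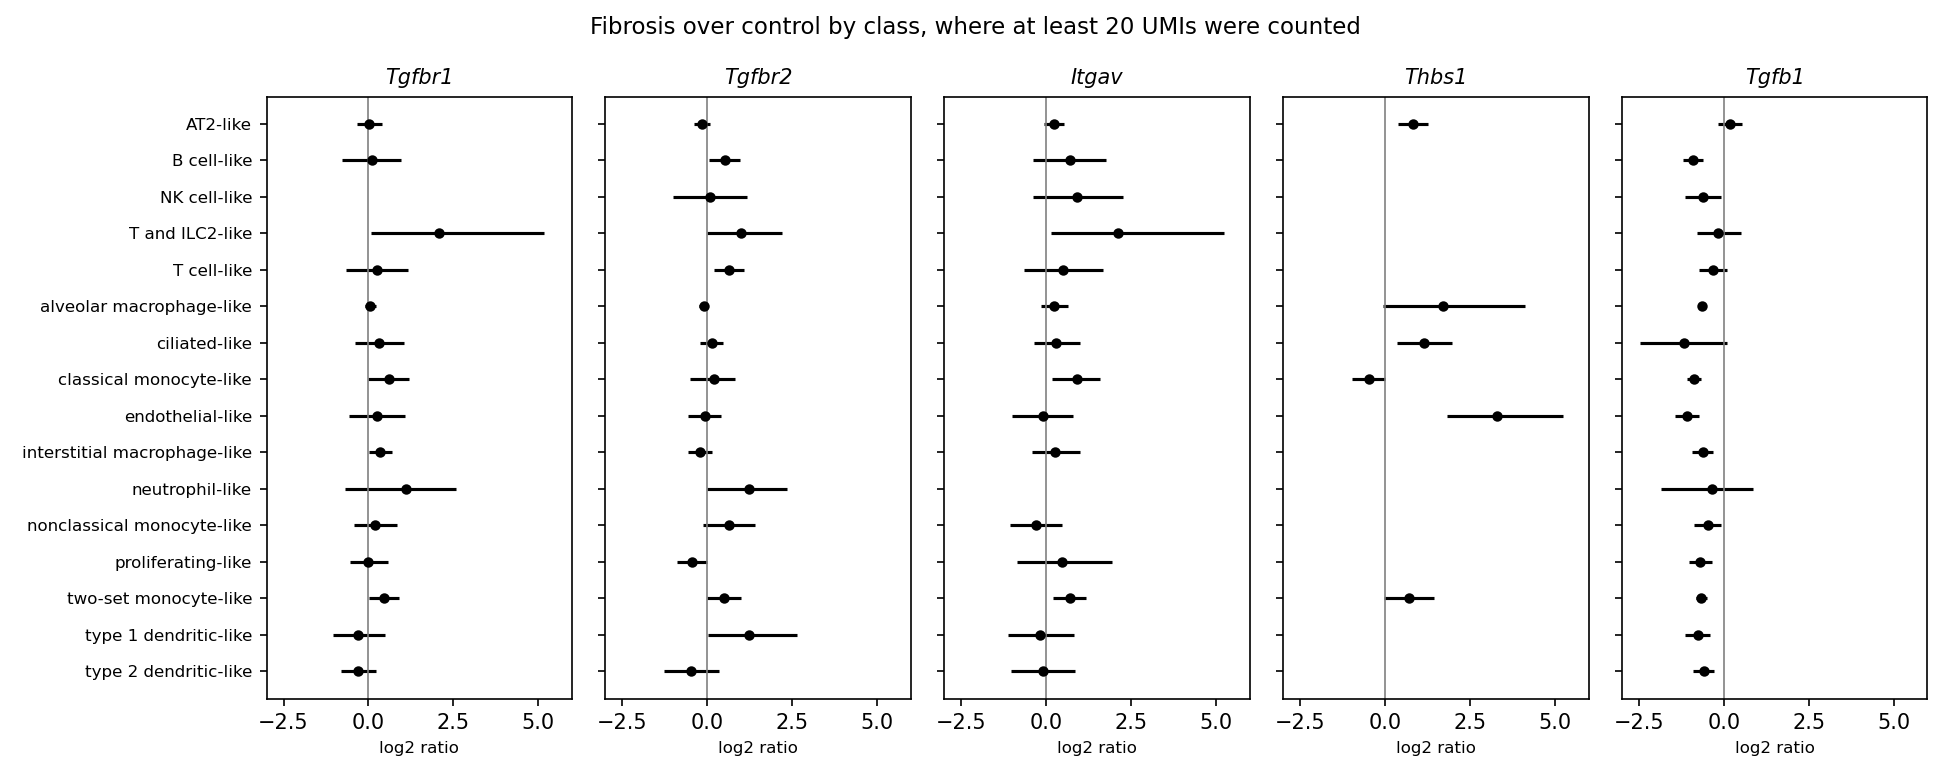
Log2 ratio, fibrosis over control, by class for Tgfbr1, Tgfbr2, Itgav, Thbs1 and Tgfb1, where at least 20 UMIs were counted over both libraries. Points are ratios of 1 library to 1 library, bars are exact 95% intervals for counting error, and classes without a point had fewer UMIs. Tgfb1 lies below 0 in 15 of 16 classes, and Tgfbr1 in 2 of 15.

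Itgb6, the partner that limits this integrin to epithelium, was highest in AT1-like cells. Their level was 189 CPM (130 to 266) in control cells and 375 CPM (287 to 482) in fibrosis cells, from 33 UMIs in 32 cells and 61 UMIs in 34 cells, a log2 ratio of 0.99 (0.35 to 1.65). The 7 AT2 markers summed to 37876 CPM in these control cells and 4397 CPM in the fibrosis ones, and their part in the value was not tested. AT2-like cells had 6.79 CPM (4.87 to 9.21) and 7.39 CPM (5.84 to 9.23), which do not differ beyond counting error, although the 2 main clusters of the class had different levels. The Sftpc-led cluster, with 933 and 1189 cells, had 5.70 CPM (3.90 to 8.05) and 3.52 CPM (2.26 to 5.24). The Slc26a4-led cluster, with 39 control and 436 fibrosis cells, had 32.8 CPM (15.0 to 62.2) and 16.4 CPM (12.1 to 21.6). The log2 ratio was -0.69 (-1.52 to 0.12) in the first cluster and -1.0 (-2.04 to 0.21) in the second, against 0.12 (-0.44 to 0.70) in the whole class. B cell-like cells, which should lack this gene, had 0 UMIs in 888 control cells, which allows a share of cells with a captured UMI up to 0.338%, and 3 UMIs in 360 fibrosis cells. These 3 lay among 978976 UMIs of the class, a background close to the 3.52 CPM of the Sftpc-led fibrosis cells. Ciliated-like cells had 4.08 and 9.59 CPM, a log2 ratio of 1.23 (0.06 to 2.58). The 5 club cell markers summed to 353005 and 289001 CPM in these cells, and their part in the ratio was not tested.

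Thbs1 gave the highest ratios of the 10 genes. Endothelial-like cells had 4 UMIs in control cells and 46 in fibrosis cells, or 4.26 CPM (1.16 to 10.9) and 41.8 CPM (30.6 to 55.7), a log2 ratio of 3.29 (1.84 to 5.23). The Vwf-led cluster held 45 of the 46, and its level was 4.90 and 53.6 CPM. The 46 came from 18 of 257 endothelial-like cells, and 28.3% of them from 1 cell. Fibroblast-like cells had 26.1 CPM (8.48 to 60.9) and 286 CPM (231 to 350), a log2 ratio of 3.46 (2.18 to 5.11), from 4 of 45 and 20 of 57 cells with a UMI. Smooth muscle or pericyte-like cells had the highest level, 429 CPM (262 to 663) and 1297 CPM (1042 to 1597), from 12 and 18 cells. Of their 20 control UMIs, 35% came from 1 cell, and of their 89 fibrosis UMIs, 29.2%. In all 3 classes the intervals of the 2 libraries did not overlap, but they do not cover the spread between cells. Thbs1 is abundant in platelets, and the 5 platelet markers summed to 1 and 2 UMIs in endothelial-like cells and to 1 and 3 in fibroblast-like cells. The 7 smooth muscle or pericyte markers summed to 9.59 and 6.36 CPM in endothelial-like cells, and to 62.7 and 134 CPM in fibroblast-like cells, and the 7 fibroblast markers to 13.9 and 52.7 CPM in endothelial-like cells. In fibroblast-like cells the 5 club cell markers summed to 4293 and 24627 CPM and the 7 AT2 markers to 12237 and 1830 CPM. The part that these marker sets played in the Thbs1 counts was not tested.

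In the fibrosis library Thbs1 was lower in AT2-like, club-like, ciliated-like, classical and two-set monocyte-like cells than in those 3 classes. The intervals of these 2 monocyte classes overlapped that of endothelial-like cells. In the control library classical monocyte-like cells had the highest level of the 16 classes. AT2-like cells had 9.28 CPM (7.01 to 12.1) in control cells and 16.3 CPM (14.0 to 18.9) in fibrosis cells, a log2 ratio of 0.81 (0.37 to 1.27). The Sftpc-led cluster had 7.13 and 9.40 CPM, a log2 ratio of 0.40 (-0.19 to 1.01), and the Slc26a4-led cluster had 51.0 and 34.1 CPM, a ratio of -0.58 (-1.39 to 0.34). Neither cluster on its own was higher past 1.5-fold, and the ratio of the whole class was 0.15 with cells thinned to 1000 UMIs and 0.57 with cells assigned one by one. Club-like cells had 3.21 CPM in control cells and 19.98 in fibrosis cells, a log2 ratio of 2.64 (0.65 to 5.75) from 2 and 28 UMIs, and all 28 lay in the Scgb3a2-led cluster. Ciliated-like cells had 9.18 and 20.2 CPM, a log2 ratio of 1.14 (0.36 to 1.99). The 5 club cell markers summed to 353005 and 289001 CPM in these cells, and their part in the value was not tested. Classical monocyte-like cells had 46.3 CPM (41.2 to 51.8) and 33.6 CPM (24.1 to 45.6), and held 57.8% of all Thbs1 UMIs in the control but 6.30% in the fibrosis library. Two-set monocyte-like cells had 15.2 and 24.8 CPM, a log2 ratio of 0.71 (-0.03 to 1.43), which was 0.40 at cluster resolution 2.

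**Figure D5:**
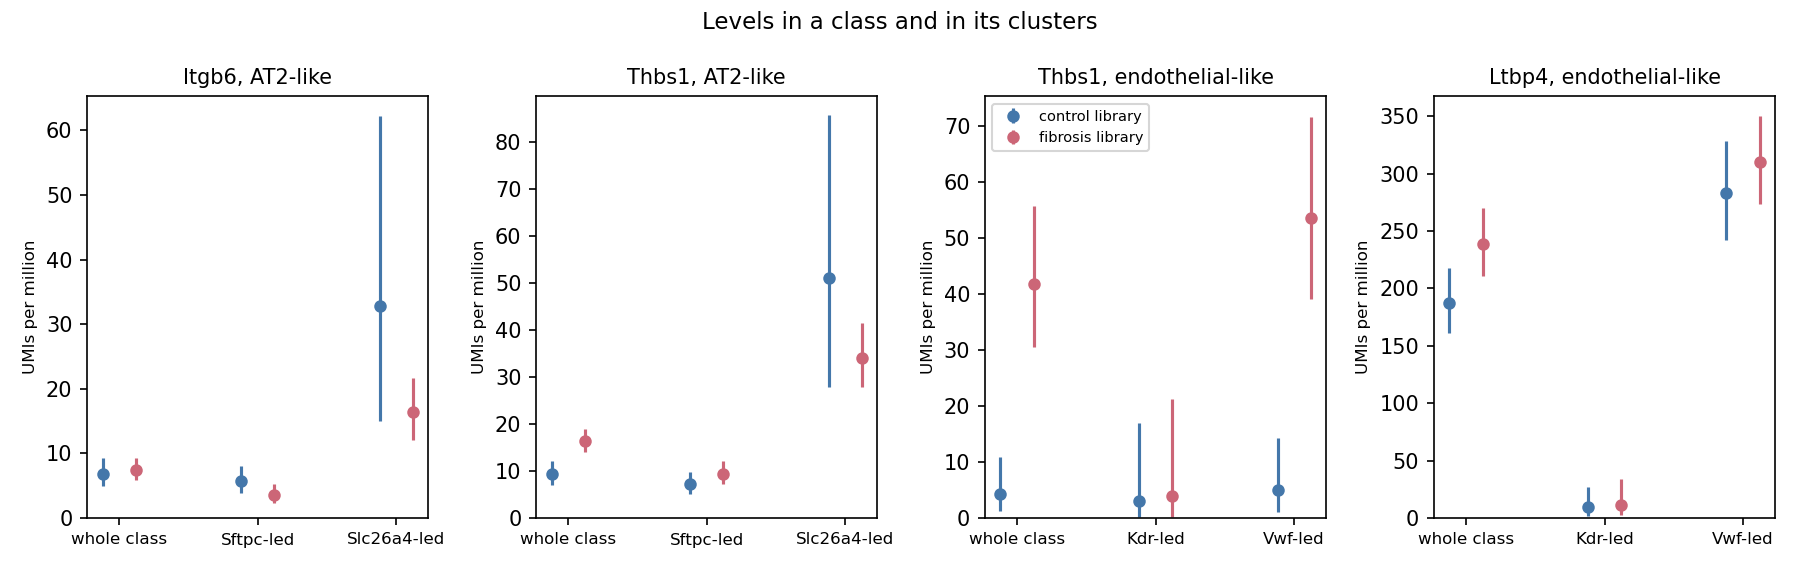
Level in CPM of Itgb6 and Thbs1 in AT2-like cells and of Thbs1 and Ltbp4 in endothelial-like cells, for the whole class and for its 2 main clusters, in the control and the fibrosis library. Bars are exact 95% intervals for counting error. The clusters of a class differ in level, and the whole-class value lies between them.

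Genes that act with these 10 were read from 4 lists. Of 88 pairs of a gene for latency and activation and a class, 7 were lower and 21 higher past 1.5-fold, with a median log2 ratio of 0.07. For receptors of the wider family the count was 13 lower and 9 higher of 66, with a median of -0.04. For Smad signalling and its inhibitors it was 9 lower and 30 higher of 147, with a median of 0.15, and for TGF-beta target genes 20 lower and 42 higher of 141, with a median of 0.14. Over all genes 10.7% were lower and 12.5% higher, with a median of -0.01.

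Mmp14, a membrane protease that can release latent TGF-beta, was higher in 3 of 7 classes and lower in 0, and in alveolar macrophage-like cells it went from 3 UMIs in the control to 124 in the fibrosis library, 0.971 and 20.8 CPM, a log2 ratio of 4.42 (2.84 to 6.72). The Mmp12-led cluster of that class had 34 control and 462 fibrosis cells. Mmp14 was not taken by cluster, so this ratio contains the change in makeup. Acvrl1, a type I receptor of endothelium, was lower in 5 of 12 classes and higher in 0, and its main source, endothelial-like cells, had 1152 CPM in control cells and 693 in fibrosis cells. Among Smad genes Smad4, the shared partner of the phosphorylated Smads, was higher in 6 of 15 classes and Smad3 in 4 of 8, both lower in 0, whereas Smad7, an inhibitor of the receptors, was higher in 1 of 14 classes and lower in 0. Tgif1, a co-repressor of Smads, was lower in 3 of 14 classes and higher in 0, and Pmepa1, which restrains Smad signalling, was higher in 3 of 10 classes and lower in 0. Acvr2a was higher in 3 of 6 classes and lower in 0. Mmp14, Smad3, Smad4, Tgif1, Pmepa1 and Acvr2a, and Bhlhe40, Itgae and Id1 below, were named for calls in 1 direction only. Their 0 in the other direction was therefore set by that rule. Over all genes 12.5% of pairs were higher and 10.7% lower past 1.5-fold.

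Among target genes Bhlhe40, a transcription factor, was higher in 11 of 15 classes and lower in 0, with a median log2 ratio of 0.97. Itgae, the integrin subunit of tissue-resident lymphocytes, was higher in 4 of 5 classes, with 21.3 and 87.8 CPM in T and ILC2-like cells. The 74 control cells of that class held 187769 UMIs in all, so the control value rests on few Itgae UMIs. Fn1, which encodes fibronectin, was higher in 6 and lower in 3 of 13 classes, with 173 and 694 CPM in alveolar macrophage-like cells. Fn1 was not taken by cluster either. Tgfbi, a matrix protein named for its induction by TGF-beta, was higher in 2 and lower in 2 of 16 classes, and Id1 was higher in 3 of 9 and lower in 0. Cdkn1a was higher in 1 and lower in 4 of 13 classes. Of the remaining most counted genes, Id2 was called in 0 of 16 classes, as was Itgb1, the beta-1 integrin. Furin, which cleaves the propeptide, was higher in 3 and lower in 2 of 16 classes, and Mmp9 was higher in 2 and lower in 2 of 5. Eng, an endothelial co-receptor, was higher in 2 and lower in 2 of 8 classes, Bambi, a decoy receptor, lower in 2 of 5, Bmpr2 higher in 1 and lower in 1 of 12, and Ski, a Smad co-repressor, lower in 1 of 16. Of the matrix proteoglycans that bind TGF-beta, Dcn was higher in 2 of 3 classes and Bgn higher in 3 and lower in 1 of 5.

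The gene whose level followed Tgfb1 most closely over the 16 classes was Nrros, which encodes the protein that tethers latent TGF-beta on myeloid cells (Pearson's r of log2 CPM plus 1 = 0.95). Nrros itself was called lower in 1 and higher in 2 of 15 classes. For Ltbp4 the closest genes were Grrp1, Robo4 and Fmo1 (r = 0.96 for each), for Tgfbr1 Abhd12 (0.95), for Tgfb2 Numb (0.94), for Itgb6 Aldh1a7 (0.92), for Tgfb3 Slc10a6 (0.90), for Tgfbr2 Abca1 (0.87), for Tgfbr3 Npr3 (0.87), for Itgav Tmem51 (0.81) and for Thbs1 Trpm4 (0.73). The 16 points share 2 libraries, differ in depth and leave out the classes of few cells, among them fibroblast-like and AT1-like cells.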

How the data were processed

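Libraries were made from whole-lung suspensions of 2 mice with 10x Genomics 3′ V2 chemistry. The authors deposited raw UMI counts per gene and cell. The submitters' processing notes name bcl2fastq, Cell Ranger 1.3 and mm10. No annotation is named in the sources used here.

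Cells under 200 genes or above 10% mitochondrial UMIs were left out, and doublets scored per library were removed (6.42% of control and 2.29% of fibrosis cells, since the threshold marked only 0.187% in the control library, where the expected share was removed). Cells were clustered with scanpy 1.11.5 (2000 variable genes without the 10 genes and the 63 list genes, 30 components, 15 neighbours, Leiden resolution 1). Clusters were named from markers of 29 cell types. Of 45 clusters, 31 were named for 1 type, 2 for both of 2 types, 11 were mixed and 1 unnamed. Naming thresholds, the splitting of mixed clusters and the 2 joint names were set after the clusters were seen. The 10 genes and 4 lists were chosen with earlier results of these data known.

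UMIs were summed per class and library. Levels carry exact Poisson and ratios exact conditional binomial 95% intervals, and shares of cells at 0 a limit of 3 counts. PCR and sampling of mice are outside these intervals. Of the 27998 identifiers, 27645 occur in GENCODE M21, the source of positions. Promoters come from RefSeq on GRCm38.p6. From each list the 4 genes with most UMIs and those called in 1 direction only in at least 3 classes were named. The ratio step was tested on simulated counts. In all, 13 alternatives were tried, and 1 that takes clusters separately was added after the data were seen.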

Additional observations from a re-analysis of the deposited data

How the results depend on the processing

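The median log2 ratio of Tgfb1 over classes stayed between -0.78 and -0.58 under the 11 alternatives that keep the ratio itself. Subtracting the other classes' median moved it to 0, and left 7 pairs of a gene and a class lower and 13 higher, against 13 and 21. Under this subtraction Tgfb1 became 0.042 in NK cell-like, 0.025 in interstitial macrophage-like and 0.045 in type 2 dendritic-like cells, and Thbs1 became -0.33 in AT2-like and -0.43 in two-set monocyte-like cells. Thbs1 in the Slc26a4-led cluster of AT2-like cells alone was -0.58, and Tgfb1 in the Hepacam-led cluster of the same class alone was 1.35. Pairs called higher numbered 6 with cells thinned to 1000 UMIs, 10 with at least 50 UMIs, 35 with at least 5 UMIs and 11 past 2-fold. Pairs called lower numbered 8 without doublet removal and 2 past 2-fold. The cause was not tested, except that thinning and the UMI minimum change how many pairs have a ratio (45 with thinning, 58 and 104 with the minimums, against 79). Of 385 values of the 39 called or Tgfb1 pairs under the 12 alternatives that apply to a single ratio, 361 stayed within the interval of the reported ratio, 19 moved and 5 reversed. Of the 34 called pairs, 16 fell under 1.5-fold under at least 1 alternative other than the subtraction, and 18 under none. An alternative that left a pair without a value was not counted, and pairs had values under 5 to 11 alternatives. The 18 are therefore not all equally checked. They include Tgfb1 in ciliated-like cells, with 6 alternatives, a call that rests largely on 1 cell. Scaling by the median of gene ratios shifted classes by at most 0.10, in NK cell-like cells, on the log2 scale. No paired analysis was possible because each group held 1 library. Depth limits the rare genes most: Tgfb2, Tgfb3, Tgfbr3 and Itgb6 had 90 to 272 UMIs per library, and fibroblast-like and AT1-like cells numbered 32 to 57.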
